A study of Mus musculus with 6 samples.

Results

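The RNA-seq library of SMC1 knockdown ESCs was compared with the 4 libraries of condensin knockdown ESCs, 2 with shRNAs against CAPH2 and 2 with shRNAs against SMC2. A gene counted as a member when its level in the SMC1 library lay above the highest or below the lowest of the 4 condensin libraries, so the control shRNA library was not the reference. Of 21124 genes in the table, 12824 had at least 50 counts in at least 1 of these 5 libraries, and 10232 of those were members. In 1032 of them the SMC1 library lay at least 2-fold beyond the nearest condensin library.

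All libraries came from V6.5 cells, a murine ESC line of C57BL/6-129 background that is kept on irradiated embryonic fibroblasts and was passaged once on gelatin before the assay. The cells received lentiviral shRNA plasmids and were selected with puromycin, first at 0.5 and then at 1 µg/ml, which holds for every group including the control. The series has 6 libraries: 1 with an shRNA against Smc1a mRNA (SMC1), 1 with an shRNA against GFP (control), and 2 each for CAPH2 and SMC2, which are named R1 and R2 and carry different hairpins against the same target. The SMC1 group is thus 1 hairpin in 1 library, and an effect of that hairpin on other mRNAs cannot be told apart from an effect of SMC1 loss.

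Cohesin and condensin are ring-shaped complexes of the structural maintenance of chromosomes (SMC) family. Cohesin holds sister chromatids together and forms DNA loops between enhancers and promoters in interphase, and SMC1 is part of its core. Condensin compacts mitotic chromosomes, SMC2 belongs to condensin I and condensin II, and CAPH2 belongs to condensin II only. ESCs keep their identity through transcription factors such as OCT4 (Pou5f1), SOX2 and NANOG, and they leave it through a formative, then a primed, epiblast state before germ layers form.

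Total counts over all annotated transcripts were between 25467427 and 31337313 per library. Levels are given as CPM, the counts of a gene relative to the library total after TMM scaling, which sets the bulk of genes to equal levels between libraries, and condensin values are listed in the order CAPH2 R1, CAPH2 R2, SMC2 R1 and SMC2 R2. A difference is the log2 ratio of the SMC1 library to the condensin libraries from edgeR's quasi-likelihood test, with its standard error (SE), and adjusted p-values are by Benjamini-Hochberg over all 12824 genes. Because SMC1 has 1 library, the test takes its spread from the 4 condensin libraries and compares this library with them, not replicated conditions. For a single gene, an exact two-sided permutation test of 1 library against 4 cannot give a p below 0.2. Synthetic ERCC RNAs, added by cell number, made up 0.948% of counts in the SMC1 library and 1.11, 1.77, 1.11 and 1.16% in the condensin libraries. Scaling to them moved the median log2 difference of all genes from -0.01 to 0.39, so all differences given here are relative to the bulk of genes in each library.

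The knockdown targets were examined first. Smc1a (chromosome X from 148450971 to 148496515, plus strand, mm9), which encodes SMC1, had 56.4 CPM in the SMC1 library and 184, 182, 181 and 165 CPM in the condensin libraries. All 4 condensin libraries were above the SMC1 library, and the difference was -1.66 ± 0.0895 (adjusted p = 1.51e-06), while with ERCC scaling it was -1.26 and its adjusted p was 0.0698. Ncaph2 (chromosome 15 from 89186153 to 89203259, plus strand), which encodes CAPH2, had 177 CPM in the SMC1 library and 55.4, 91.98, 211 and 215 CPM in the condensin libraries. It was low with both CAPH2 hairpins, and the SMC1 library lay between the CAPH2 and the SMC2 libraries. An exon of Sco2 overlaps Ncaph2 on the other strand, and the kit does not mark strand. Smc2 (chromosome 4 from 52452121 to 52501131, plus strand) had 220.3 CPM in the SMC1 library and 223, 215, 99.9 and 102 CPM in the condensin libraries. Here the SMC1 library lay within the CAPH2 pair and above the SMC2 pair. Each target was thus lowest in the libraries labelled with its own shRNA.

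Outside the condensin range lay 79.8% of the genes tested, with 5034 above (39.3%) and 5198 below (40.5%), so lying outside these 4 libraries is by itself common. At 2-fold or more the share was 8.05%, with 578 genes above (4.51%) and 454 below (3.54%). The edgeR test called 3222 genes higher (25.1%) and 3017 lower (23.5%) in the SMC1 library, together 48.7%. The test uses the same 5 values as the range, so that the 1032 genes were all called follows nearly from how they were chosen. With ERCC scaling the split was 8536 above and 743 below the range, 1080 and 179 at 2-fold, and 1434 higher and 174 lower by edgeR. All 578 genes above and 179 of the 454 below were still 2-fold outside under that scaling. Nearest to the 2-fold limit above were Scara3 and Plekhg2, just past it, and Plxnc1 and Zfp618, just short of it, with log2 gaps to the nearest condensin library of 1.001 for the first pair and 0.9999 for the second. Below, Map3k6 and B4galnt4 were just past it, at -1.001 and -1.003, and Lrmp and Aldh1b1 just short, at -0.9993 and -0.9973. Of the genes named here by rule, ERCC scaling reversed none and ended the edgeR call of Aldoc, Etv4, Gdf15, Hormad1, Nanog, Pou5f1, Smc1a, Sox2, Stra8 and Tjp3. Genes above tended to have low levels in the condensin libraries, with a median of 3.70 CPM, against 14.4 CPM for genes below and 35.4 CPM for all tested. Of the 578 genes above, 185 reached 50 counts only in the SMC1 library, and in 180 of the 454 below the SMC1 library was under 50 counts, so these genes could pass the filter only by differing.

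**Figure D1:**
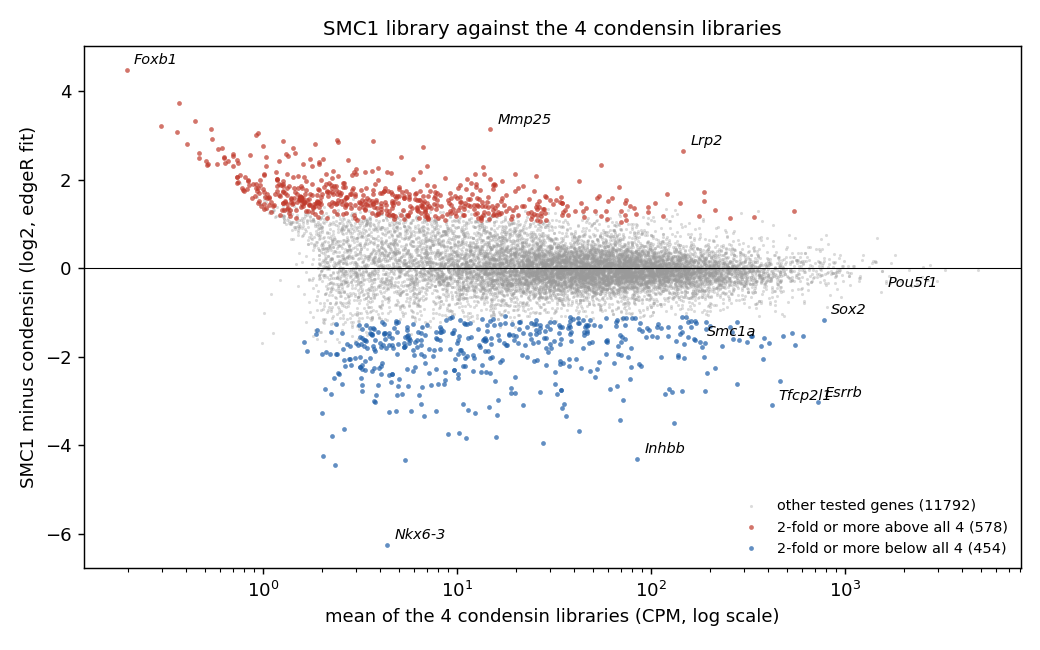
Log2 difference between the SMC1 library and the 4 condensin libraries (edgeR fit, vertical axis) against the mean of the condensin libraries (CPM, log horizontal axis) for 12824 genes. Red points are the 578 genes at least 2-fold above all 4 condensin libraries, which lie mostly at low condensin levels, and blue points are the 454 at least 2-fold below, which reach highly expressed genes.

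Among the genes furthest above the condensin range were regulators of development and secreted or membrane proteins. Foxb1 (chromosome 9 from 69605517 to 69608747, minus strand), a forkhead transcription factor of the embryonic nervous system, had the largest gap, with 89 counts in the SMC1 library and 3, 4, 8 and 2 in the condensin libraries. Its SMC1 value stood far outside the low condensin counts, but its reads cannot be separated from those of an opposite-strand transcript. Mmp25 (chromosome 17 from 23766425 to 23782236, minus strand), a membrane-anchored metalloproteinase, had 130.2 CPM against 15.6, 14.0, 14.0 and 15.4 CPM. The condensin values lay close together and the difference was 3.14 ± 0.0821 (adjusted p = 7.36e-08). Mef2c (chromosome 13 from 83643033 to 83806684, plus strand), a transcription factor of muscle and neurons, had 4.83 CPM against 0.594, 0.581, 0.399 and 0.588 CPM. It was clear of all condensin libraries, by 3.15 ± 0.271. Only its level in the SMC1 library let Mef2c pass the count filter. Like the other genes listed for their gaps, above or below, it was chosen by the same values that the edgeR test uses. The test is therefore not separate evidence for these genes. Pcdh19 (chromosome X from 130117400 to 130223532, minus strand), a cell adhesion protocadherin, had 44.3 CPM against 7.17, 5.97, 6.60 and 6.86 CPM. Csdc2 (chromosome 15 from 81767189 to 81781370, plus strand), an RNA-binding cold shock protein, had 27.0 CPM against 3.40, 3.75, 3.68 and 3.92 CPM. In both the lowest and highest condensin values were near each other and the SMC1 value was several times as high. Further genes among the 10 largest gaps above were Pdzph1 (difference 3.73), Foxl2os (3.31), a noncoding transcript next to Foxl2, Synpo2l (2.89), a protein of muscle actin filaments, and Pcsk2 (3.02), a prohormone protease. All 4 were called higher by edgeR, with adjusted p between 3.96e-06 and 4.99e-05.

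The genes furthest below included ligands, receptors and genes of early embryos. Nkx6-3 (chromosome 8 from 24263743 to 24269420, plus strand), a homeodomain transcription factor, had 1 count in the SMC1 library and 76, 91, 102 and 98 in the condensin libraries. Its level was 1.20% of the condensin level, with a 95% exact interval from 0.0302 to 6.71% that covers counting error only. Inhbb (chromosome 1 from 121312042 to 121318825, minus strand), the beta B subunit of activin and inhibin, had 4.32 CPM against 71.7, 76.8, 93.8 and 97.4 CPM. Even the lowest condensin library was far above the SMC1 library, and the difference was -4.30 ± 0.242 (adjusted p = 1.84e-06). Khdc3 (chromosome 9 from 72950205 to 72952250, plus strand), part of a maternal protein complex of oocytes and early embryos, had 1.80 CPM against 27.7, 26.4, 29.7 and 27.3 CPM and a difference of -3.95 ± 0.175 (adjusted p = 5.83e-07). Septin1 (chromosome 7 from 134357956 to 134361959, minus strand), a filament-forming GTPase, had 11.7 CPM against 127, 142, 132 and 126 CPM and a difference of -3.49 ± 0.117 (adjusted p = 1.7e-07). In each of these genes the 4 condensin libraries lay well above the SMC1 library, in a narrow band for Khdc3 and Septin1 and more widely spread for Nkx6-3 and Inhbb. Ly6g6d, of the Ly6 family, had 2 counts against 54, 48, 54 and 44, which is 4.39% of the condensin level with a 95% exact interval from 0.528 to 16.1%. Accsl (difference -3.80), Grin1 (-4.34), a subunit of the NMDA glutamate receptor, D630039A03Rik (-3.83), Lrrc34 (-3.66) and Lrriq4 (-3.72) completed the 10. The exons of Lrrc34 and Lrriq4 overlap on opposite strands, as do those of Grin1 and E130003G02Rik, and their reads cannot be separated.

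**Figure D2:**
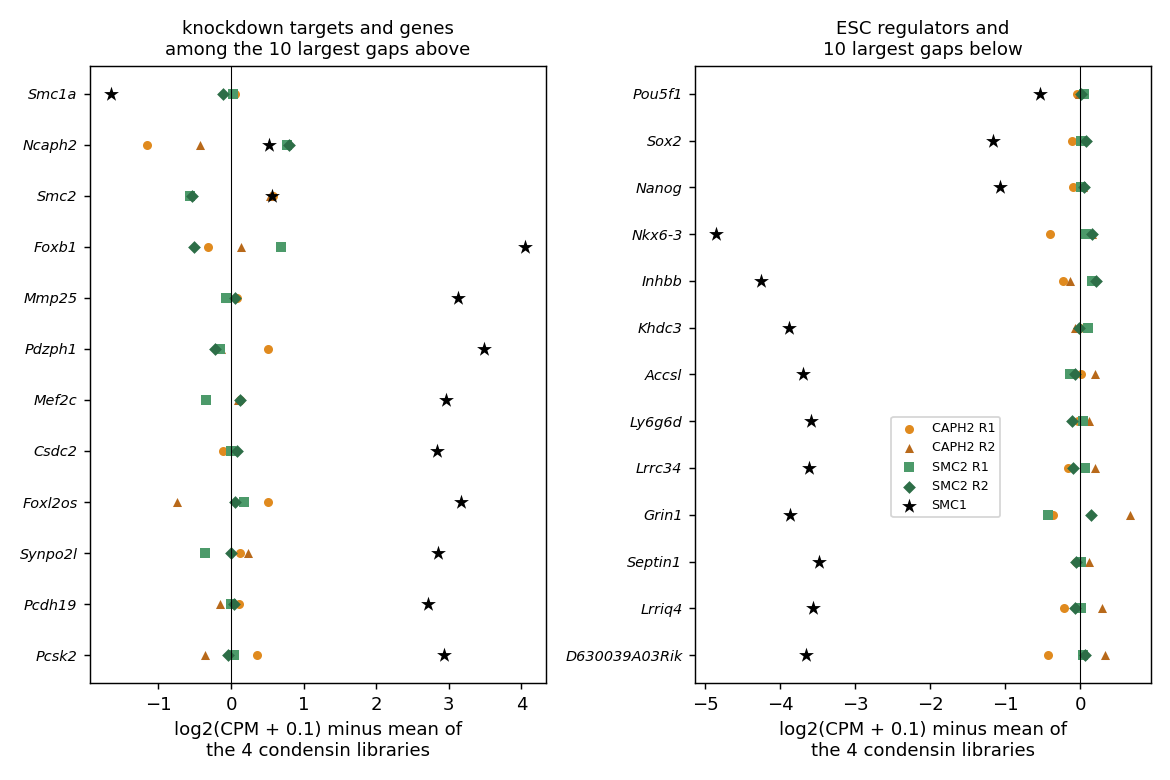
Level of each gene in each library as log2(CPM + 0.1) minus the mean of the 4 condensin libraries (horizontal axis), for the knockdown targets and genes among the 10 largest gaps above (left) and for 3 ESC regulators and the 10 largest gaps below (right). The star is the SMC1 library, and the coloured symbols are the condensin libraries, which lie within about 1 log2 unit of 0 except for the knockdown target Ncaph2 with CAPH2 R1.

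The counts given for gene lists below stand beside shares over all genes tested of 4.51% above and 3.54% below at 2-fold, and of 25.1% higher and 23.5% lower by edgeR. Leaving out the list of very long genes, the lists held 587 tested genes, of which 218 were called higher and 139 lower. With ERCC scaling 148 of the 218 and 22 of the 139 were still called. Outside the pluripotency factors no list then had more than 2 genes called lower, so most lower calls given below were not made under that scaling. The ERCC share was 1.77% with CAPH2 R2 and 1.11 to 1.16% in the other condensin libraries. ERCC scaling therefore also sets CAPH2 R2 apart from the other condensin libraries, which widens their spread. The part of this spread in the lost calls, higher and lower, was not tested. Pluripotency factors were the list with the most genes at least 2-fold below. Of 30 tested, 17 lay at least 2-fold below all 4 condensin libraries, none lay 2-fold above, and edgeR called 23 lower and 2 higher. The median difference was -1.37, against -0.01 for all genes. Tcl1 (chromosome 12 from 106454967 to 106460947, minus strand), an AKT coactivator of the early embryo, had 6.42 CPM against 59.4, 80.6, 67.1 and 68.1 CPM (difference -3.42 ± 0.196, adjusted p = 2.13e-06). Prdm14 (chromosome 1 from 13103509 to 13117244, minus strand), a repressor of differentiation in naive ESCs and germ cells, had 3.60 CPM against 32.0, 40.3, 36.5 and 36.8 CPM (difference -3.34 ± 0.182, adjusted p = 1.63e-06). Tfcp2l1 (chromosome 1 from 120524522 to 120581745, plus strand), a transcription factor of the naive state, had 48.8 CPM against 368, 457, 407 and 438 CPM (difference -3.10 ± 0.134, adjusted p = 5.26e-07). The condensin libraries did not overlap with the SMC1 library in any of the 3. Esrrb, Klf4, Klf2, Tbx3 and Nr0b1, further transcription factors of the naive network, had differences of -3.02, -2.77, -2.61, -2.72 and -2.78, and Dppa3, a maternal factor also called Stella, of -2.36; all 6 were called lower.

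The core regulators had smaller differences than these naive-state factors. Pou5f1 (chromosome 17 from 35642984 to 35647722, plus strand) had 1044 CPM in the SMC1 library and 1474, 1509, 1576 and 1526 CPM in the condensin libraries, a difference of -0.54 ± 0.0638 (adjusted p = 0.000121). Sox2 (chromosome 3 from 34548927 to 34551382, plus strand) had 347 CPM against 719.8, 789, 779.8 and 820.3 CPM, a difference of -1.16 ± 0.0827 (adjusted p = 6.96e-06). Nanog (chromosome 6 from 122657586 to 122663796, plus strand) had 229.6 CPM against 453, 496, 486 and 499.7 CPM, a difference of -1.08 ± 0.0773 (adjusted p = 7.71e-06). All 3 were below every condensin library. With ERCC scaling they kept this sign at -0.14, -0.76 and -0.67, but were no longer called (adjusted p = 0.874, 0.344 and 0.43), and the list then had 12 genes 2-fold below, 13 called lower and none called higher. Lin28a, an RNA-binding protein that blocks let-7 maturation, was the list member with the largest difference upward at 0.67, and Sall4, a zinc finger regulator, was at 0.00 and did not pass the test.

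Because OCT4 binds the octamer, the 250 bases before the transcription start of each gene were searched on both strands for TTTGCAT, in the RefSeq promoter table of build GRCm38.p6, which held a window for 10143 of the genes tested. The letters occurred in 3.02% of all windows, in 5.67% of the windows of genes at least 2-fold below, in 3.29% of those 2-fold above, and in 3 of 20 pluripotency factors with a window. These 3 are Nanog, Sox2 and Zfp42, and they are shown because all were lower in the SMC1 library, with Zfp42 (also known as Rex1) at 91.7 CPM against 374, 379.6, 386 and 369 CPM. Capitals mark the octamer core or its reverse complement, and each stretch runs 5′ to 3′ on the strand of the gene.
Nanog, chr6:122707384-122707450: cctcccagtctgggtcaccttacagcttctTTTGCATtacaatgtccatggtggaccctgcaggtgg
Sox2, chr3:34649866-34649932: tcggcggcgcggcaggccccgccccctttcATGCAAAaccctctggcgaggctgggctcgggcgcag
Zfp42, chr8:43307158-43307224: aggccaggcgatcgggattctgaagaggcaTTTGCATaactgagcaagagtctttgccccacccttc
Nanog and Sox2 are on the plus strand and Zfp42 is on the minus strand. A match of letters is a description and not a mapped binding site. Most other letters searched were also more frequent in windows of genes 2-fold below than in all windows. The ESRRB half-site AAGGTCA was in 4.18 against 2.68%, and the GATA letters AGATAAG in 2.09 against 1.46%. The KLF letters GGGNGTG were in 37.6 against 33.8%. The CArG box, described further on, went the other way. Of the 20 pluripotency factors with a window, 10 held the KLF letters, 1 the GATA letters and 0 the ESRRB half-site. Windows of genes 2-fold below also held fewer CpG than all windows, and the shares were not adjusted for base composition.

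Genes of the formative and primed epiblast were more often called higher than lower. Of 17 tested, 5 were at least 2-fold above the condensin range and none below, and edgeR called 10 higher and 2 lower, with a median of 0.68. Sox3 (chromosome X from 58144541 to 58146605, minus strand), a SOXB1 transcription factor of epiblast and neural progenitors, had 56.3 CPM against 14.9, 16.3, 14.5 and 15.5 CPM (difference 1.88 ± 0.0951, adjusted p = 1.13e-06). Lef1 (chromosome 3 from 130813389 to 130926249, plus strand), a nuclear effector of WNT signaling, had 1396 counts against 467, 429, 431 and 421 (difference 1.81 ± 0.0966, adjusted p = 1.49e-06), and Sall2 (chromosome 14 from 52930856 to 52948345, minus strand) had 188 CPM against 66.2, 60.8, 63.3 and 61.3 CPM (difference 1.58 ± 0.0689, adjusted p = 5.26e-07). The SMC1 library was the highest of the 5 for each of these genes. Cdh2, the N-cadherin gene, Pou3f1, the gene for OCT6, and Fgf5, a growth factor of the primed epiblast, were also called higher, at 1.49, 1.23 and 1.10. Dnmt3b, a de novo DNA methyltransferase, was higher by 0.68. Otx2, a head and epiblast regulator, was at 0.10 and Fgf8 at -0.17, neither past the test, and Foxd3 was lower, at -0.54.

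Targets of the actin-regulated factor SRF and of the mechanosensitive coactivator YAP were higher almost throughout. Of 25 tested, 8 were at least 2-fold above the condensin range, none was 2-fold below, and 22 were called higher and none lower, with a median of 1.19. Lats2 (chromosome 14 from 58308499 to 58364960, minus strand), a kinase of the Hippo pathway and itself a YAP target, had 58.0 CPM against 18.5, 13.8, 15.8 and 14.6 CPM (difference 1.88 ± 0.129, adjusted p = 5.79e-06). Cnn1 (chromosome 9 from 21903697 to 21913665, plus strand), the smooth muscle calponin, had 83.2 CPM against 29.6, 21.8, 25.9 and 21.95 CPM (difference 1.74 ± 0.135, adjusted p = 1.13e-05). Myl9 (chromosome 2 from 156601200 to 156607393, plus strand), a myosin light chain, had 93.8 CPM against 36.9, 26.3, 35.99 and 29.6 CPM (difference 1.54 ± 0.144, adjusted p = 3.28e-05). No condensin library overlapped with the SMC1 library for these 3. Tagln, Acta1, Ankrd1 and the matricellular genes Ccn1 and Ccn2 were higher by 1.71, 1.59, 1.58, 1.38 and 1.31, whereas Actb, which encodes cytoplasmic beta-actin, was at -0.06 and did not pass the test. CAPH2 R1 was the highest condensin library for 20 of the 25 genes, against 30.2% of all genes tested, and without it 16 genes were 2-fold above. The same count of 16 was reached with the SMC2 libraries alone and with ERCC scaling.

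SRF binds the CArG box, which is a CC pair, 6 bases that are each A or T, and a GG pair, and TEAD factors, which YAP acts through, bind CATTCCA. In the 250 bases before the start, on either strand, a CArG box occurred in 1.13% of all windows, in 2.58% of windows of genes at least 2-fold above, in 0.597% of those 2-fold below, and in 5 of the 19 SRF and YAP targets with a window. The letters CATTCCA were in 2.37% of all windows, 4.23% of those 2-fold above, 3.28% of those 2-fold below and 4 of the 19. The 5 genes with a CArG box are shown with it in capitals because all were higher in the SMC1 library, and they were put on the list partly for being known SRF targets.
Acta1, chr8:123894809-123894878: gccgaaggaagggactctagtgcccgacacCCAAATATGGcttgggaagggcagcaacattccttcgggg
Myl9, chr2:156775273-156775342: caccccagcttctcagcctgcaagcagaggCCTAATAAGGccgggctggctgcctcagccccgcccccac
Cnn2, chr10:79988514-79988583: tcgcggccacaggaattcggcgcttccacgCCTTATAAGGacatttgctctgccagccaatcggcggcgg
Vcl, chr14:20929148-20929210: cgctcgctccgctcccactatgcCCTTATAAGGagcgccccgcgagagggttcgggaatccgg
Srf, chr17:46556185-46556274: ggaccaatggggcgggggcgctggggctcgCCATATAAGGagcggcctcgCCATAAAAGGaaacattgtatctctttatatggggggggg
These stretches are from GRCm38.p6 of RefSeq and run 5′ to 3′ on the gene's strand, which is minus for Acta1 and Srf and plus for Myl9, Cnn2 and Vcl. The differences were 1.59 for Acta1, 1.54 for Myl9, 0.91 for Cnn2, 0.79 for Vcl, which encodes vinculin, and 0.53 for Srf itself, which carries 2 boxes.

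Mesenchymal genes showed the same direction. Of 20 tested genes of fibroblasts and mesenchyme, 4 were at least 2-fold above, 16 were called higher and none lower, with a median of 0.81. CAPH2 R1 was the highest condensin library for 16 of the 20, and without it 7 were 2-fold above. Twist1 (chromosome 12 from 34642536 to 34644696, plus strand), a bHLH factor of mesenchyme, had 29.8 CPM against 9.17, 10.6, 9.93 and 10.0 CPM (difference 1.59 ± 0.115, adjusted p = 8.16e-06), and Col5a2 (chromosome 1 from 45431176 to 45560127, minus strand), a fibrillar collagen, had 173 CPM against 80.8, 45.3, 65.2 and 49.1 CPM (difference 1.52 ± 0.221, adjusted p = 0.000403). Fbn1, the microfibril protein fibrillin, had 71.1 CPM against 31.7, 23.8, 28.3 and 28.5 CPM. In Col5a2 the condensin libraries themselves spread widely, with CAPH2 R1 the highest, yet the SMC1 library was above it. Lox, Bgn and Col3a1 were higher by 1.48, 1.18 and 0.91, and Vim and Postn were at 0.19 and 0.22 and did not pass. The cells had been grown with fibroblast feeders, and the summed level of 8 feeder markers was 417 CPM in the SMC1 library and 224 to 329 CPM in the condensin libraries. Of the 8, Dcn and Lum were under 50 counts in all 5 libraries, with 19 and 5 counts in the SMC1 library and at most 7 and 1 in the others. The part of carried-over feeder cells in these differences, or in those of the SRF and YAP targets, was not tested. In bulk RNA a change in the share of a cell type and a change of RNA per cell cannot be told apart.

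**Figure D3:**
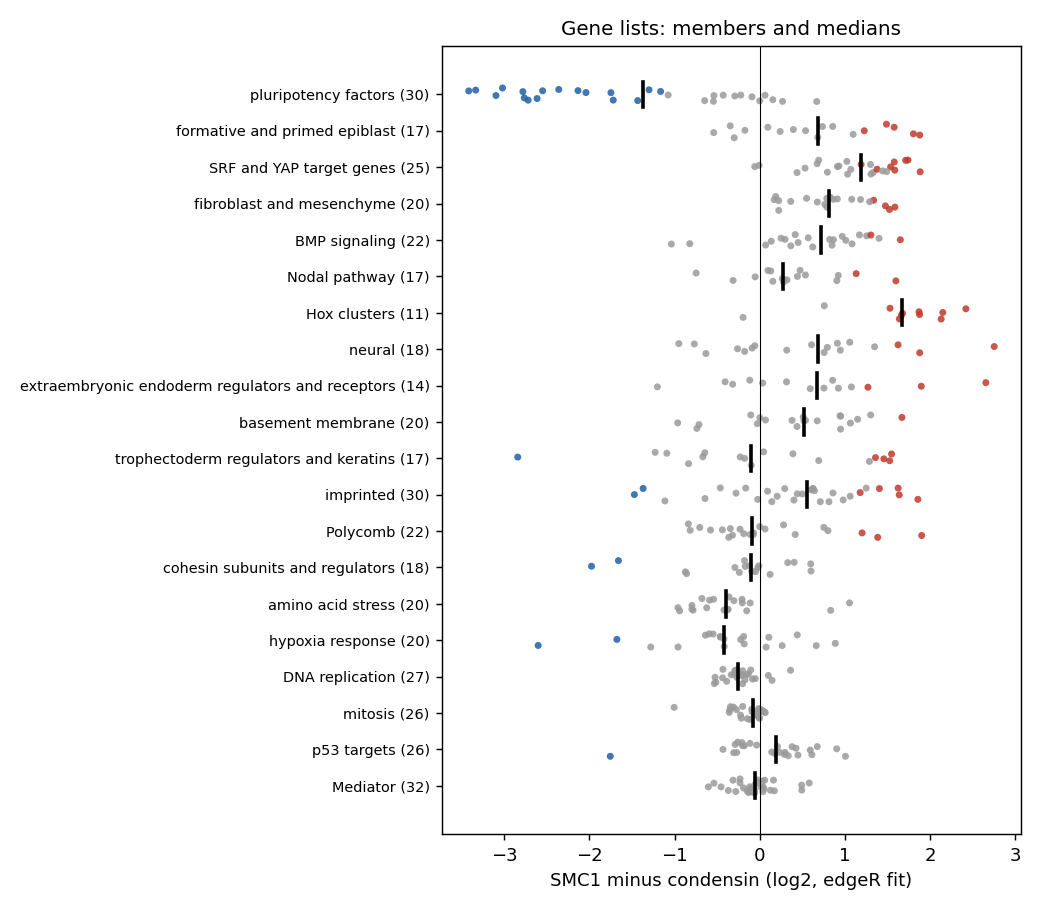
Log2 difference between the SMC1 library and the condensin libraries (edgeR fit, horizontal axis) for every tested member of 20 gene lists, with the number tested in brackets; the vertical spread within a list is only for display. Black bars are list medians, red members are at least 2-fold above all 4 condensin libraries and blue members at least 2-fold below; pluripotency factors have a median of -1.37 and SRF and YAP targets one of 1.19.

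Signaling lists differed in how evenly they moved. For BMP signaling 22 genes were tested, of which 2 were at least 2-fold above, 16 were called higher and 2 lower, with a median of 0.72. Without CAPH2 R1 5 were 2-fold above, and with ERCC scaling 11 were called higher and none lower. Bmpr1b (chromosome 3 from 141500100 to 141645215, minus strand), a type I BMP receptor, had 10.2 CPM against 3.35, 2.75, 2.97 and 3.92 CPM (difference 1.65 ± 0.197, adjusted p = 0.000132). Among targets, Msx1, a homeodomain factor induced by BMP, had 10.6 CPM against 4.29, 4.91, 5.01 and 2.89 CPM (difference 1.31 ± 0.238, adjusted p = 0.00156), and the helix-loop-helix inhibitors Id1, Id2 and Id3 were higher by 0.57, 0.85 and 0.97 while Id4 was lower, at -1.04. The span of Msx1 overlaps that of Msx1os, which was also 2-fold above, and the kit does not mark strand. Among ligands and their antagonists, Bmp4 was lower, at -0.82, and Nog, which encodes the BMP antagonist noggin, was higher, at 0.62. The SMC1 library was therefore above all condensin libraries for Bmpr1b, Nog, Id1, Id2 and Id3 and below them for Bmp4 and Id4.

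In the Nodal pathway, a TGF-beta family pathway active in ESCs, 17 genes were tested, 2 were 2-fold above, 9 were called higher and 1 lower, with a median of 0.28. Lefty1 (chromosome 1 from 182865170 to 182868532, plus strand), a secreted Nodal inhibitor and target, had 557 CPM against 271, 229.5, 264 and 250.2 CPM (difference 1.13 ± 0.0824, adjusted p = 8.2e-06). It was above every condensin library, whereas the ligand gene Nodal was at 0.13 and did not pass. Lefty2 and Skil were higher by 0.92 and 0.91, and Pcsk6, a protease that processes Nodal, was lower, at -0.75. Among 17 FGF and ERK feedback genes, 2 were 2-fold above and 1 below, and 5 were called higher and 4 lower. Il17rd (chromosome 14 from 27852187 to 27920472, plus strand), an inhibitor of FGF receptor signaling, had 391 CPM against 137, 143, 134 and 152 CPM (difference 1.47 ± 0.0720, adjusted p = 8.84e-07), and Dusp6 (chromosome 10 from 98725865 to 98730122, plus strand), an ERK phosphatase, had 231 CPM against 108, 93.6, 95.6 and 88.1 CPM (difference 1.26 ± 0.0917, adjusted p = 8.16e-06). Etv4 (chromosome 11 from 101631056 to 101646624, minus strand), an ETS factor induced by FGF, went below the range, with 49.9 CPM against 151, 133, 144 and 133 CPM (difference -1.49 ± 0.0994, adjusted p = 4.86e-06; with ERCC scaling adjusted p = 0.13). The list therefore held members far outside the range on both sides, and Spry4, a receptor kinase inhibitor, was lower, at -0.75, while Spry2 was higher, at 0.34.

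Lineage markers did not move as whole programs. Among regulators and receptors of extraembryonic endoderm 14 of 24 genes in the table were tested, 3 were 2-fold above, 7 were called higher and 1 lower. Lrp2 (chromosome 2 from 69262392 to 69424124, minus strand), the endocytic receptor megalin of visceral endoderm and other absorptive epithelia, had 924 CPM in the SMC1 library and 139, 127, 149 and 171 CPM in the condensin libraries. All condensin libraries lay far below it, and the difference was 2.66 ± 0.110 (adjusted p = 4.21e-07). Apob, which encodes the lipoprotein apolipoprotein B, had 93 counts against 45, 18, 29 and 18, and Fgfr2, an FGF receptor, had 39.4 CPM against 19.4, 14.6, 15.1 and 15.9 CPM. The defining regulators stayed low: Sox17 had 18 counts and Gata6 31 counts in the SMC1 library and at most 24 and 49 counts in the condensin libraries, and Gata4 was at 0.59 with 12.0 CPM. Of the basement membrane genes, 12 of 20 were called higher and 3 lower. Lama2 was the one at least 2-fold above, by 1.67, but without CAPH2 R1 and with the SMC2 libraries alone 5 were, and the type IV collagens Col4a1 and Col4a2 were higher by 1.15 and 0.94, while Lama1 and Lamc1, laminin chains of the early embryo, were lower, at -0.96 and -0.74.

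Of the trophectoderm regulators and keratins, 4 of 17 were 2-fold above and 1 below, and 5 were called higher and 4 lower. Cdx2 (chromosome 5 from 148112476 to 148118825, minus strand), the homeodomain regulator of trophectoderm, had 107 counts against 48, 37, 47 and 31 (difference 1.53 ± 0.227, adjusted p = 0.000471). Krt18 (chromosome 15 from 101858647 to 101862457, plus strand), an epithelial keratin, had 216 CPM against 96.1, 75.8, 60.1 and 63.4 CPM (difference 1.55 ± 0.182, adjusted p = 0.000121), and its partner Krt8 was higher by 1.36. The opposite held for Tfap2c (chromosome 2 from 172375093 to 172384119, plus strand), an AP-2 transcription factor of trophectoderm and naive ESCs, with 16.4 CPM against 119.8, 121, 116 and 113 CPM (difference -2.84 ± 0.0950, adjusted p = 1.7e-07). Tead4 and Eomes, further trophectoderm regulators, were lower, at -1.23 and -0.84, and Elf5 had 0 counts in the SMC1 library and at most 1 in the others.

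In the neural list 3 of 18 genes were 2-fold above and none below, and 10 were called higher and 3 lower. Zic1 (chromosome 9 from 91255183 to 91260637, minus strand), a zinc finger factor of the neural plate whose exons overlap Zic4, had 130 counts against 13, 18, 29 and 24 (difference 2.75 ± 0.301, adjusted p = 7.83e-05). Nefm, a neurofilament gene, had 25.8 CPM against 8.06, 7.45, 6.69 and 5.78 CPM, and Nrcam, a neuronal adhesion molecule, had 23.7 CPM against 10.7, 5.86, 6.60 and 7.40 CPM. The progenitor genes Nes, Pax6 and Sox11 were higher by 1.06, 0.79 and 0.91, whereas Tubb3, a tubulin of neurons, was at -0.18 without passing and Stmn2 was lower, at -0.77. Among 14 mesendoderm genes 4 were called higher and 3 lower. Evx1 was higher by 1.26, while Lhx1, a LIM homeodomain factor, was lower with 16 counts against 74, 136, 99 and 62. Mesp1, a bHLH factor of early mesoderm, had 3 counts against 36, 64, 49 and 39, which is 7.01% of the condensin level with a 95% exact interval from 1.43 to 20.8%. T, which encodes brachyury, was at 0.46 and did not pass.

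Adhesion genes were mixed. Of 21 integrins, 2 were 2-fold above and 3 below, with 8 called higher and 4 lower. Itgb8 had 5.81 CPM against 1.74, 1.37, 1.24 and 0.931 CPM, and Itgb1, the common beta subunit, was higher by 0.97. Of the 3 integrin genes 2-fold below, Itgb7 had 2.67 CPM against 16.9, 18.0, 18.6 and 22.3 CPM (difference -2.82 ± 0.222, adjusted p = 1.24e-05) and Itgal had 15 counts against 69, 75, 82 and 89. Of 19 epithelial junction genes, 9 were called higher and 2 lower. Dsp, which encodes desmoplakin, had 101 CPM against 45.8, 46.9, 38.8 and 49.5 CPM, Tjp3, a tight junction scaffold, had 10.6 CPM against 24.1, 30.3, 28.8 and 29.6 CPM, and Cdh1, the E-cadherin gene, was at -0.07 and did not pass.

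**Figure D4:**
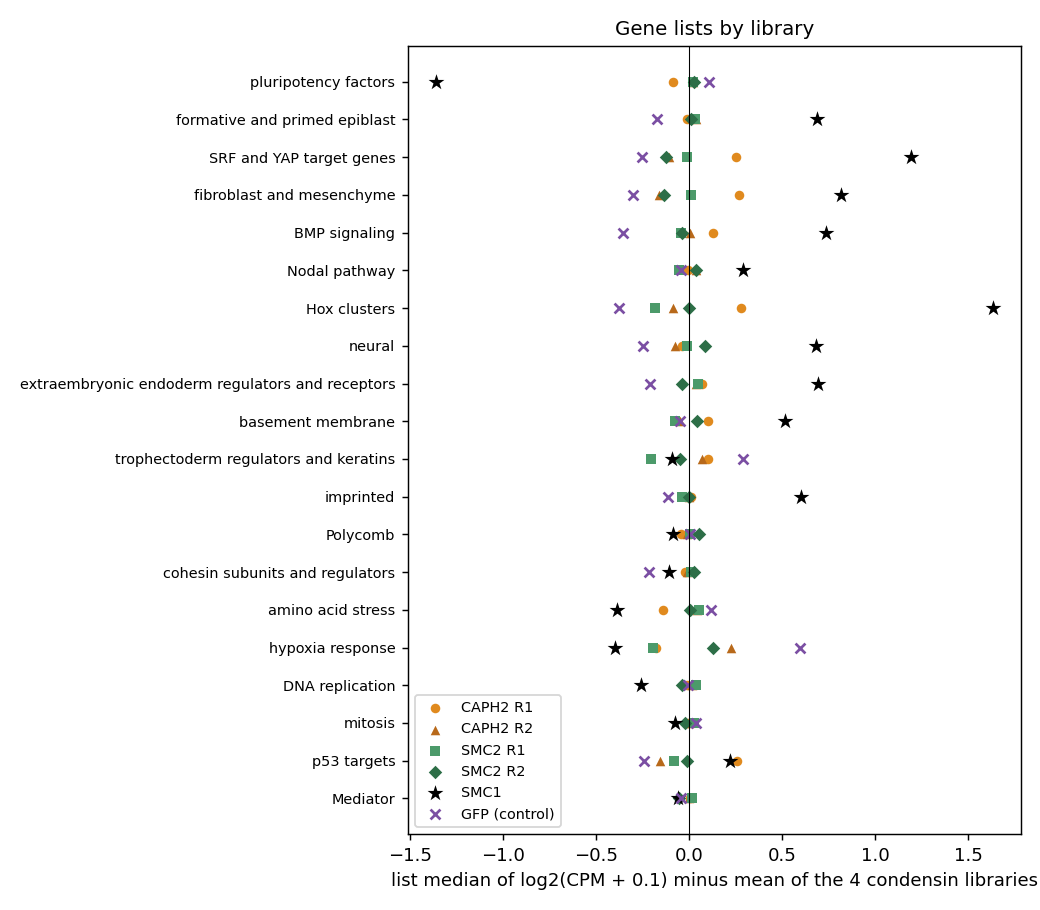
Median over the tested members of each gene list of log2(CPM + 0.1) minus the mean of the 4 condensin libraries (horizontal axis), for each library, with the GFP control as a purple cross. The SMC1 library (star) stands apart from all 4 condensin libraries for pluripotency, SRF and YAP, Hox and other lists, CAPH2 R1 (orange circle) is nearest to it for the SRF and YAP and the mesenchyme lists, and for p53 targets CAPH2 R1 lies at 0.255 and SMC1 at 0.221.

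Hox genes, which set positions along the body axis and are held silent by Polycomb complexes in ESCs, were higher at low levels. Of 39 Hox genes 11 were tested, and 9 of these were at least 2-fold above and called higher, but 5 of the 11 reached 50 counts only in the SMC1 library. Hoxb2 (chromosome 11 from 96212946 to 96215328, plus strand) had 8.22 CPM against 2.29, 2.38, 2.48 and 1.76 CPM (difference 1.88 ± 0.207, adjusted p = 8.26e-05), and Hoxa10 (chromosome 6 from 52181198 to 52184938, minus strand) had 128 counts against 36, 13, 28 and 28. Hoxb3, Hoxb2 and Hoxb1 formed an adjacent run within 45.1 kb on chromosome 11. Hoxb2 overlaps an antisense transcript that the unstranded reads could not be told from. Clustered protocadherins gave a longer run: 14 transcripts of the alpha cluster on chromosome 18 were all 2-fold above, for example Pcdha10 with 103 counts against 38, 26, 45 and 32. These share constant exons, so their counts are largely the same reads and stand for 1 signal, and all 14 passed the filter only in the SMC1 library. The gamma cluster genes Pcdhgc3, Pcdhgc4 and Pcdhgc5 were at 0.09, -0.01 and 0.00 and did not pass.

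Chromatin regulators and imprinted genes were next. Of 22 Polycomb genes, 7 were called higher and 10 lower. Genes at least 2-fold above included those of 2 PRC1 proteins, Cbx8 with 88 counts against 28, 22, 27 and 26 and Bmi1 with 31.2 CPM against 14.3, 12.4, 12.2 and 15.2 CPM. The PRC2 subunits Eed, Suz12 and Mtf2 were lower, at -0.84, -0.44 and -0.82. The lower calls outnumbered the PRC2 genes on the list, so some PRC1 genes were lower too and the list did not split by complex. All lower calls were lost with ERCC scaling, where no member of the list was called lower. Among 15 DNA methylation genes, Tet2 (chromosome 3 from 133126641 to 133207354, minus strand), which oxidises methylcytosine, had 52.8 CPM against 156, 177, 184 and 213 CPM (difference -1.79 ± 0.153, adjusted p = 1.92e-05). Its paralog Tet3 (chromosome 6 from 83312370 to 83391672, minus strand) had 98.3 CPM against 35.4, 36.2, 35.7 and 40.6 CPM (difference 1.41 ± 0.0868, adjusted p = 2.98e-06), and Tet1 was lower, at -0.86. The 3 TET genes thus moved in both directions, and Dnmt1 was at -0.14 and did not pass. Of 30 imprinted genes, 5 were 2-fold above and 2 below, with 18 called higher and 5 lower and a median of 0.55. Cdkn1c (chromosome 7 from 150644247 to 150646955, minus strand), a cyclin-dependent kinase inhibitor, had 168 CPM against 51.2, 52.1, 52.7 and 60.2 CPM (difference 1.64 ± 0.0860, adjusted p = 1.39e-06), Sgce had 16.3 CPM against 5.56, 5.17, 5.45 and 4.95 CPM and Asb4 83 counts against 28, 27, 22 and 23. Peg10, Plagl1 and Meg3 were higher by 1.25, 1.41 and 0.64, and Peg3 and H19 were lower, at -0.64 and -1.11.

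Interferon response genes split. Of 12 tested, 4 were 2-fold above and 1 below, and 4 were called in each direction, while with ERCC scaling 4 were called higher and 1 lower. Oasl2 (chromosome 5 from 115346943 to 115362254, plus strand), an antiviral OAS-like protein, had 29.0 CPM against 6.15, 7.50, 5.50 and 6.62 CPM and Gbp2, a guanylate-binding GTPase, had 78.5 CPM against 24.1, 24.4, 17.6 and 20.9 CPM, while Oas1a, an RNA-sensing synthetase, had 1.95 CPM against 9.72, 9.87, 9.04 and 10.00 CPM. The sensors and their regulators divided in the same way, with Ifih1 higher by 1.63 and Ddx58, Irf9 and Stat2 lower, at -0.84, -0.59 and -0.63. Of 16 germline and meiosis genes, 6 were called higher and 2 lower, or 5 lower without CAPH2 R1. Tdrd1, a factor of the piRNA pathway, had 14.8 CPM against 5.09, 4.33, 4.21 and 3.23 CPM, and Stra8, a gene of meiotic entry, and Hormad1, of the meiotic chromosome axis, had 24 and 69 counts in the SMC1 library against ranges of 71 to 88 and 178 to 262 in the condensin libraries.

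The list of cohesin genes includes the target Smc1a, which is among those called lower. Calls went both ways, at shares not far from those of all genes tested. Of 18 cohesin subunits and regulators, 4 were called higher and 6 lower, with a median of -0.11. With ERCC scaling the median was 0.30, none was called higher and 1 lower. Smc1b (chromosome 15 from 84895119 to 84962387, minus strand), the meiotic paralog of SMC1, had 37 counts against 142, 153, 166 and 176 (difference -1.98 ± 0.275, adjusted p = 0.000321). Stag3, another meiotic subunit, and Esco2, a cohesin acetyltransferase, were also lower, at -0.87 and -0.86. The mitotic subunits Stag1 and Stag2 and the loader Nipbl were higher, at 0.60, 0.60 and 0.40, and the core partners Smc3 and Rad21 were at -0.17 and -0.05 without passing. Of 8 condensin genes, Ncapg2 was called higher, at 0.25, and none lower. Among 32 Mediator genes 3 were called higher and 8 lower, none 2-fold outside, and Med14, a backbone subunit, was at 0.58. No Mediator gene was called with ERCC scaling, and 3 were called lower without CAPH2 R2 or without SMC2 R1.

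Growth and stress lists showed small differences. Of 27 DNA replication genes 17 were called lower and 1 higher, with a median of -0.26, and all lay within 2-fold of the condensin range. Examples were Cdt1 and Mcm10, replication licensing and initiation factors, at -0.52 and -0.52. Of 26 mitosis genes 7 were called lower and none higher, with Pttg1, which encodes the separase inhibitor securin, at -1.01. For amino acid stress genes, which respond to ATF4, 12 of 20 were called lower and 2 higher, with a median of -0.40, and Asns, which encodes asparagine synthetase, was at -0.96. Of 20 hypoxia genes, 9 were called lower and 1 higher, with a median of -0.42. The glycolytic enzyme gene Aldoc had 7.66 CPM against 16.8, 33.1, 20.5 and 28.1 CPM, and Ndufa4l2, a mitochondrial protein induced by hypoxia, had 1.28 CPM against 5.52, 14.0, 3.94 and 8.28 CPM, so the condensin libraries varied several-fold among themselves. With ERCC scaling the medians of these 4 lists were 0.15, 0.32, 0.02 and 0.0037 in the same order, and 1 gene in them (in the hypoxia list) was still called lower. For p53 targets, 6 of 26 were called higher and 4 lower with a median of 0.19, and CAPH2 R1 was the highest condensin library for 21 of them, so that without CAPH2 R1 14 were called higher. Cdkn1a, the p21 cell cycle inhibitor gene, was at 0.90 with 210.1 CPM against 155, 97.4, 98.3 and 97.1 CPM, and Gdf15, a stress cytokine gene, was below the range with 31 counts against 112, 106, 130 and 112. Cholesterol synthesis genes had a median of 0.02, with 4 of 20 called higher and 2 lower, and CAPH2 R1 was the lowest condensin library for 19 of them, so that without it 4 were called lower. Of 5 replication-dependent histone genes tested, H1f2 was called higher, at 0.44, a call that held without CAPH2 R1 but not without any of the other condensin libraries; these mRNAs mostly lack poly(A) tails.

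What the genes outside the range share beyond function was described by their length and promoters. The span from transcript start to end had a median of 43.5 kb for genes at least 2-fold above, 15.6 kb for genes 2-fold below and 21.6 kb for all tested. Of the 526 genes longer than 200 kb, 90 were 2-fold above (17.1%) and 10 below (1.90%), against 4.51% and 3.54% of all genes, and edgeR called 287 higher and 64 lower, with a median of 0.43. With ERCC scaling 192 were called higher and 1 lower, with a median of 0.84. Of these long genes 58 reached 50 counts only in the SMC1 library. The alpha protocadherin run spans 257.4 kb, and its transcripts longer than 200 kb were each counted although they share reads. They therefore add 1 signal more than once to the counts of 90 and 58 and to the shares under 10 CPM. A condensin mean under 10 CPM was found for 213 of the 526 long genes, so genes were separated by level. At a condensin mean of 10 CPM or more, where no gene depended on the SMC1 library to pass the filter, the share 2-fold above was 1.46% up to 10 kb, 0.990% from 10 to 50 kb, 2.48% from 50 to 200 kb and 5.75% over 200 kb. In the same bins edgeR called 14.2, 18.7, 33.7 and 44.1% higher and 34.3, 26.0, 18.6 and 16.6% lower. Under 10 CPM the 2-fold shares above were 11.1, 9.89, 22 and 33.8%. Sema3e (chromosome 5 from 14025276 to 14256689, plus strand), an axon guidance ligand gene, was a long gene above the range with 277 CPM against 58.5, 53.3, 50.4 and 58.0 CPM (difference 2.33 ± 0.0800, adjusted p = 1.7e-07). Cobl (chromosome 11 from 12136679 to 12364963, minus strand), an actin nucleator gene, was one of the 10 long genes below, with 44.8 CPM against 200.1, 216, 207 and 234 CPM (difference -2.26 ± 0.106, adjusted p = 7.23e-07).

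The number of CpG dinucleotides in the promoter differed most for genes below the range. In the 250 bases before the start, the median was 16 CpG over all windows, 14 for genes 2-fold above and 8 for genes 2-fold below. At most 5 CpG were found in 11.4% of all windows, 25.6% of those 2-fold above and 38.8% of those 2-fold below. At a condensin mean of 10 CPM or more, 65 of 636 genes with at most 5 CpG were 2-fold below (10.2%), against 70 of 2795 with 6 to 15 and 68 of 4534 with 16 or more, and the shares 2-fold above were 3.30, 1.72 and 1.17%. Under 10 CPM, where most genes 2-fold above lay, the shares above were 16.8, 10 and 15.9% and did not fall steadily with CpG, edgeR called 31.4, 32.6 and 43.8% higher, and the shares 2-fold below were 12.4, 5.83 and 2.36%. The window is that of the first RefSeq start listed for a gene. Some of the genes were neighbours: 134 of the 578 genes above and 123 of the 454 below had an adjacent tested gene on the same side at 2-fold (23.2 and 27.1%). Of all genes tested, 8.53% had an adjacent gene 2-fold above and 6.72% one 2-fold below. Leaving out neighbours whose spans overlap, as in the Pcdha cluster, 118 and 110 genes had one (20.4 and 24.2%). The shares over all genes tested were then 8.31 and 6.45%. Besides the Hox and protocadherin runs these included Gbp7, Gbp3, Gbp2b and Gbp2 above on chromosome 3, the keratins Krt7, Krt8 and Krt18 above on chromosome 15, and Triml1, Triml2 and Zfp42 below on chromosome 8. The longest run below held 6 genes from Dnah8 to Pde9a over 849 kb of chromosome 17.

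**Figure D5:**
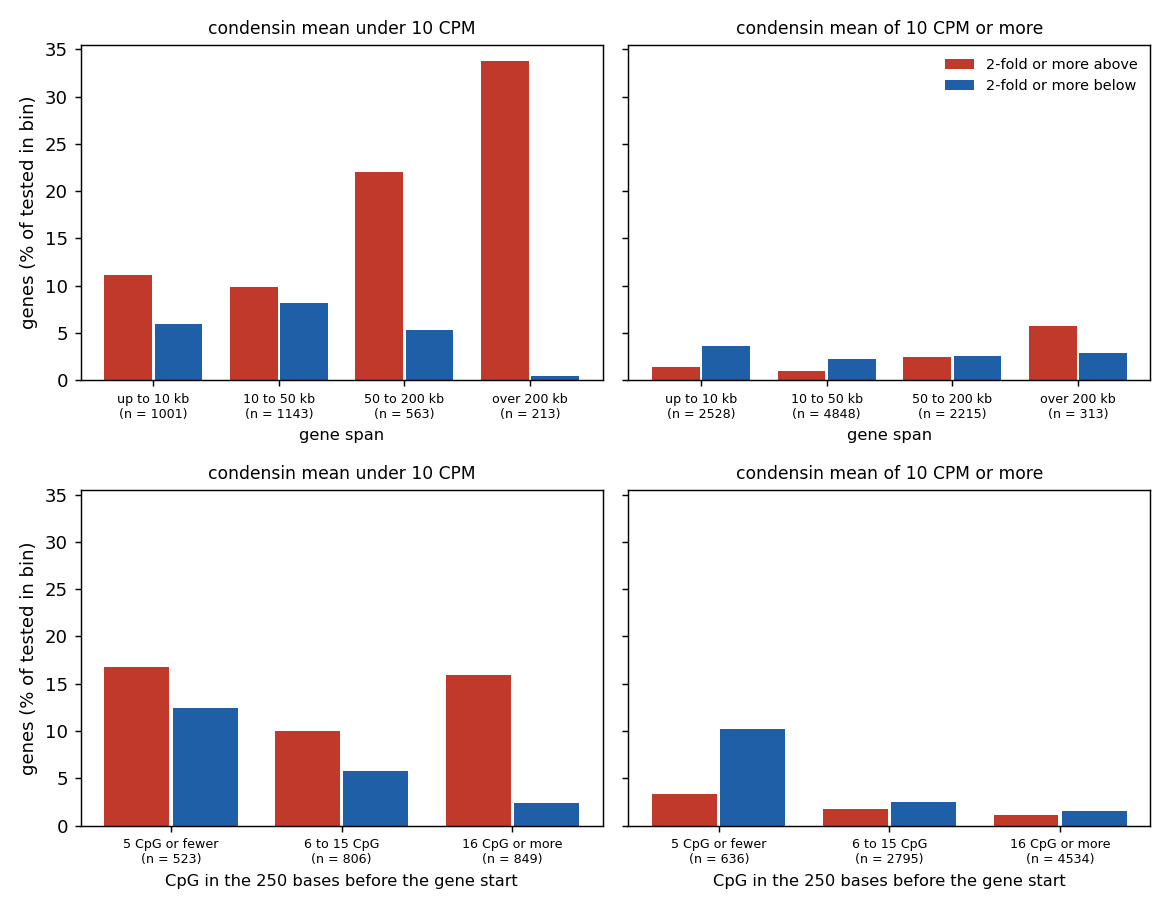
Percent of tested genes at least 2-fold above (red) or below (blue) all 4 condensin libraries, by gene span (upper panels) and by CpG count in the 250 bases before the gene start (lower panels), separately for condensin means under 10 CPM (left) and of 10 CPM or more (right), with the number tested under each pair of bars. The red bars are lowest from 10 to 50 kb and highest over 200 kb, at 5.75% in the right and 33.8% in the left upper panel, and the blue bar is highest for 5 CpG or fewer, at 10.2% in the right lower panel.

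The position of the control library shows whether condensin libraries lay on the SMC1 side of it. For 330 of the 578 genes at least 2-fold above (57.1%) the GFP library was below the whole condensin range, for 195 it was inside and for 53 it was between the condensin and the SMC1 libraries. For 302 of the 454 genes 2-fold below (66.5%) the GFP library was above the whole range, for 101 inside and for 51 between. Over all genes tested, GFP was below the range in 35.6% and above in 34.4%. Among all genes with SMC1 above the range, at any gap, GFP was below it in 48.35%. Among all with SMC1 below the range, GFP was above it in 49.92%. Mmp25, for example, had 10.2 CPM in the GFP library, Lrp2 had 100.1 CPM, Tcl1 had 104 CPM and Nanog 568 CPM, each on the far side of the condensin libraries from SMC1. The control is a single library, so these counts are a description and carry no test.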

How the data were processed

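RNA-seq was made from total RNA of knockdown ESCs with the TruSeq RNA version 2 kit, which does not mark strand. Per the labels and the study's methods, alignment was to mm9 with Bowtie, and reads with more than 2 matching places were dropped, so near-identical copies lose reads. The authors then deposited exonic counts for each RefSeq transcript, and the RPKM derived from them. The deposited counts were used here. ERCC rows were left out, 1 transcript per gene was kept (most counts over the 6 libraries), and genes needed 50 counts in at least 1 of 5 libraries. Symbols came from RefSeq for 25353 of 26073 transcripts, from overlap with GENCODE for 673, and 47 kept their accession.

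Genes were tested with edgeR 4.0.16 in R 4.3.3 (TMM, quasi-likelihood, Benjamini-Hochberg, threshold 0.05, 3 residual degrees of freedom, common biological coefficient of variation 0.0665). The gap is the distance in log2 CPM (prior count 2) to the nearest condensin library. On simulated counts for the 12824 genes of this comparison, the test recovered 42 of 50 genes changed 1.5-fold and all 50 changed 2-fold, with 26 false calls among 218. In that simulation the changed genes excluded those at the lowest condensin levels and were few against those called in the data. The simulated SMC1 library was given the spread of the condensin libraries. The simulation therefore cannot show how the test performs at low levels or if the SMC1 library varies more. DESeq2 1.42.0, other scalings, filters and reference libraries were alternatives. p-values measure only the spread between the condensin libraries. The named genes are the targets, Pou5f1, Sox2 and Nanog, the 10 largest gaps each way and up to 3 members per gene list with a gap of 2-fold, plus up to 6 further members as examples, of which some are not reported here. The comparison, members and lists were chosen with earlier results of these data known. Deposited RPKM served as an alternative with a pseudocount of 1.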

Additional observations from a re-analysis of the deposited data

Results flagged for a closer look

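The share of counts on ERCC RNAs was 1.77% with CAPH2 R2 and 1.11 to 1.16% in the other condensin libraries, a gap of 0.918 of the whole range that exceeds Dixon's limit for 4 samples. Among the 88 genes named by rule, 4 had 1 condensin library apart by the same measure, and chance gives about 1 in 20. Cdkn1c had 60.2 CPM with SMC2 R2 and 51.2 to 52.7 CPM in the other condensin libraries (0.833), against 168 CPM with SMC1. Tet3 had 40.6 CPM with SMC2 R2 and 35.4 to 36.2 CPM in the others (0.835), against 98.3 CPM with SMC1. Pdzph1 had 0.552 CPM with CAPH2 R1 and 0.294 to 0.317 CPM in the others (0.912), against 5.04 CPM with SMC1. Mef2c had 0.399 CPM with SMC2 R1 and 0.581 to 0.594 CPM in the others (0.932), against 4.83 CPM with SMC1. In all 4 the SMC1 library was far outside the outlying library. Ncaph2 in the SMC1 library was higher than both CAPH2 libraries and lower than both SMC2 libraries, with log2 ratios of 1.26 to the CAPH2 mean and -0.27 to the SMC2 mean that differ by 1.53. This difference was not tested, and Ncaph2 is the target of the CAPH2 hairpins.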

How the results depend on the processing

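Scaling to ERCC RNAs changed every count: 8536 genes lay above and 743 below the range, 1080 and 179 at 2-fold, and edgeR called 1434 higher and 174 lower. Without a count filter, 898 and 685 genes were 2-fold above and below, with the deposited RPKM 201 and 266, and with a gap of 1.5-fold 1425 and 991. Leaving out 1 condensin library gave 5156 to 5410 genes above, 5363 to 5519 below, 592 to 743 at 2-fold above, 465 to 512 at 2-fold below, 2803 to 3508 called higher and 2476 to 3302 called lower. DESeq2 called 2904 higher and 2580 lower. Of 94 alternative counts, 82 were within 1.5 times the value reported. Ncaph2 reversed to -0.27 against the SMC2 libraries alone. Of 1303 alternative values for the 88 genes named by rule (targets, ESC regulators, largest gaps and up to 3 per list, not the further examples), 1289 kept direction and side of the threshold, 10 lost the call, all with ERCC scaling, and 3 gained it (Ncaph2 against CAPH2 alone, Smc2 against SMC2 alone and with the condensin targets as separate groups). Among list members, ERCC scaling ended 70 of 218 higher and 117 of 139 lower calls. List counts not given in the text that moved by more than 1.5 times without 1 condensin library moved by 1 or 2 genes. Of the 578 genes above, 577 or more stayed 2-fold above in each fit without 1 condensin library, and 453 or more of the 454 below stayed below, which follows largely from there being fewer libraries to exceed. No paired analysis was possible because the SMC1 group is 1 library and carries no replicate number, and R1 and R2 mark different hairpins. With 1 SMC1 library, differences between cultures or infections cannot be told apart from the knockdown, and the test assumes that it would vary like the condensin libraries. Genes under 50 counts were not tested.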
